A study of Danio rerio with 8 samples.

Results

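Cranial mesenchyme and neural crest transcription factors of the zebrafish (Danio rerio) were examined as a set of 10 genes. They were listed by Ensembl gene ID among the 35117 genes of the annotation and not by a threshold on their values. Earlier results of these data were known when the set was chosen. The set comprised twist1a (ENSDARG00000030402), twist1b (ENSDARG00000076010), prrx1a (ENSDARG00000033971), dlx2a (ENSDARG00000079964), dlx5a (ENSDARG00000042296), barx1 (ENSDARG00000007407), hand2 (ENSDARG00000008305), tfap2a (ENSDARG00000059279), foxd3 (ENSDARG00000021032) and sox10 (ENSDARG00000077467). Of these, 9 had reads and passed the filter on low counts in every comparison, and foxd3 had none.

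The neural crest is a population of embryonic cells that leaves the dorsal neural tube and gives rise to pigment cells, peripheral glia and neurons, and, in the head, to the mesenchyme that builds cartilage, bone and connective tissue. Factors such as Tfap2a, Foxd3 and Sox10 act in the specification of the crest and of its pigment, glial and neuronal derivatives. Twist1, Prrx1, Dlx, Barx1 and Hand2 factors act in the mesenchyme of the pharyngeal arches, where nested Dlx expression and ventral Hand2 set the position of a cell along the arch.

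The study tested whether RNA of a small number of sorted cells can be sequenced. All animals carried the Tg(fli1a:EGFP) reporter, in which the promoter of fli1a drives EGFP. The paper places fli1a expression in vasculature, developing mesenchyme and cells derived from neural crest, such as jaw cartilage. Each sorted RNA came from 20000 EGFP positive cells of fish aged 3 days, isolated by fluorescence activated cell sorting, and each whole embryo RNA from 1 undissociated embryo aged 5 days. The sorted cells of sequencing run 2 gave 1 RNA with the RNeasy kit (libraries Q_2a and Q_2b) and 1 with the RNAqueous kit (A_2a and A_2b), each split into 2 technical replicates. The sorted cells of run 1 gave 1 library per kit (Q_1 and A_1), and the whole embryos 1 library per kit, sequenced in run 2 (Q_unsorted and A_unsorted).

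All sorted cells came from a single pool of fish, so that p-values measure only the spread between these RNA samples (n = 2 RNA per group), which may be technical. Sorting, dissociation, age and the use of 1 embryo per RNA differed together between sorted cells and whole embryos and cannot be told apart. The cDNA of run 2 sorted cells was made from a smaller volume of RNA and amplified for more cycles than that of the other samples. Volume and cycles therefore also differ in their comparison with embryos. Run 1 sorted cells and embryos were sequenced in different runs, which cannot be told apart from sorting. Between run 2 and run 1 sorted cells, the run, the cycles and the volume of RNA put into cDNA synthesis differed together. For 1 RNeasy library the labels give conflicting sample numbers, and it was taken as Q_1.

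Between 10763174 and 19537939 reads were counted on genes per library. Values are given as CPM, the count of a gene scaled to a common total of these reads, which are not corrected for transcript length, so that levels are compared between samples and not between genes. The fli1a gene of the fish, whose promoter drives the reporter, is listed as FLI1 (ENSDARG00000054632). It had 268 to 398 CPM in the 6 sorted libraries against 24.8 to 30.7 CPM in the whole embryos. Among the sorted libraries, A_1 held the highest value of twist1a, twist1b and dlx5a and the lowest of prrx1a, dlx2a, sox10 and tfap2a. How often A_1 was the highest or lowest over all genes was not computed. The run 2 libraries are pairs of technical replicates, which lie close together. Reads on multiple loci, which were not counted, made up 5.49% to 6.93% of all reads in 7 libraries and 11.1% in Q_unsorted.

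In run 2 sorted cells, 8 of the 9 measured factors were higher than in whole embryos, none was lower, and tfap2a did not pass the test (quasi-likelihood test of edgeR at 0.05, p adjusted after Benjamini-Hochberg over all genes tested). Among all 21377 genes tested, 23.5% were called higher, 28.2% lower and 51.7% in either direction. The median log2 fold change of the 9 factors was 2.27, against -0.00 for all genes tested. In run 1 sorted cells the same comparison also called 8 of the 9 factors higher and none lower, with a median log2 fold change of 2.80, against -0.06 for all 20254 genes tested, of which 17.3% were called higher, 25.5% lower and 42.8% in either direction. Both comparisons used the same 2 whole embryos, so they are not independent of each other. In bulk RNA, fewer cells of a type and less RNA per cell cannot be told apart.

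**Figure D1:**
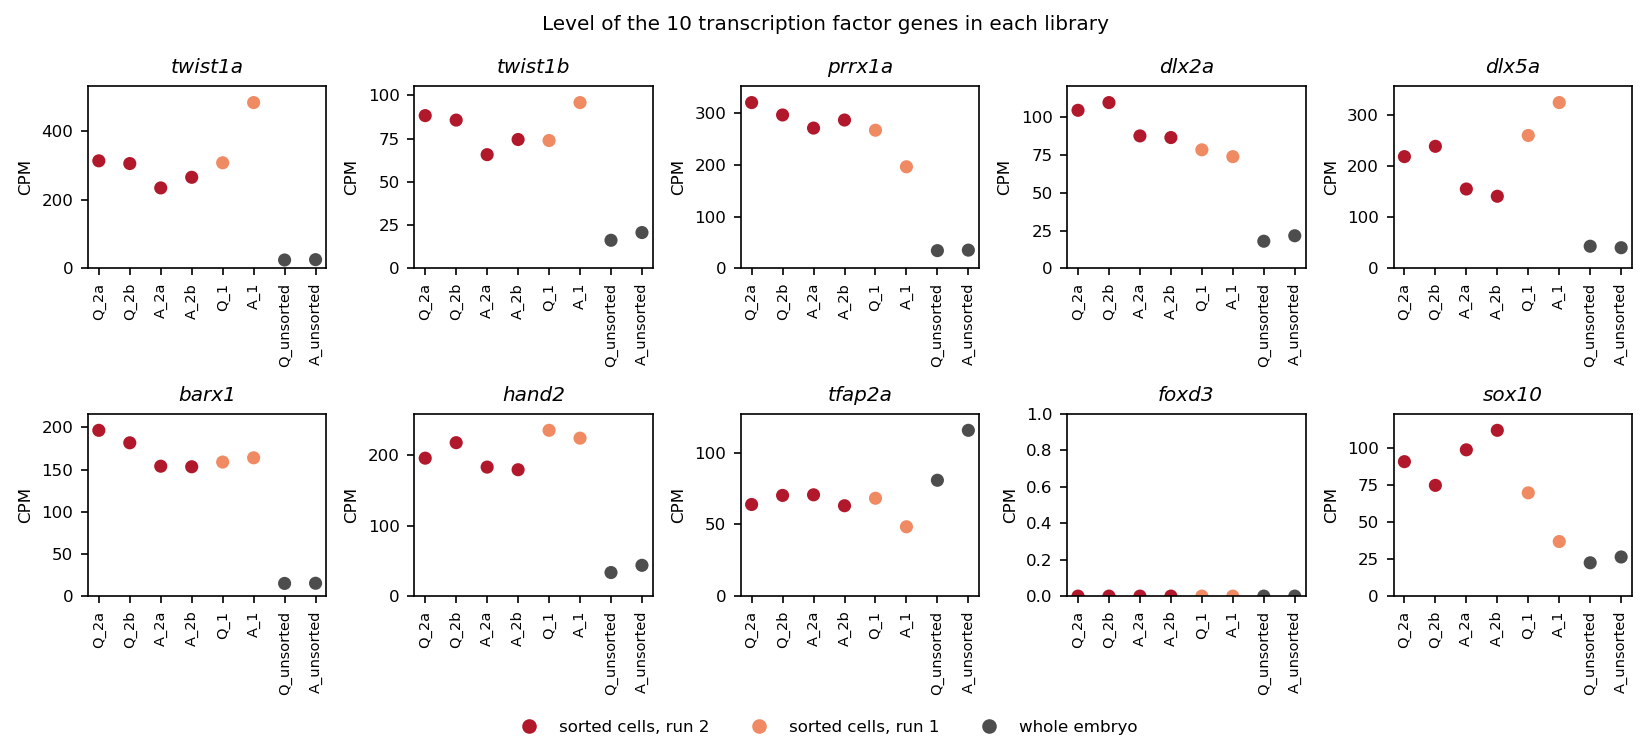
CPM (y axis, linear, from 0, scaled per gene) of the 10 factors in each of the 8 libraries (x axis), coloured by group. In 8 genes every sorted library sits above both whole embryos, in tfap2a every sorted library sits below both, and foxd3 is at 0 throughout. The share of all genes that separate in this way was not computed.

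The twist genes encode basic helix-loop-helix factors of crest-derived and other mesenchyme. twist1a had 313 and 305 CPM in Q_2a and Q_2b, 234 and 265 CPM in A_2a and A_2b, 307 CPM in Q_1 and 483 CPM in A_1, against 24.4 CPM in Q_unsorted and 25.4 CPM in A_unsorted. The sorted libraries lay far above the embryos without overlap, and A_1 lay above the other sorted libraries. The increase was 10.9-fold in run 2 (log2 3.45 ± 0.34 SE, edgeR adjusted p = 6.13e-06) and 18.8-fold in run 1 (log2 4.24 ± 0.51 SE, edgeR adjusted p = 6.3e-05). Without A_1 the run 1 value was 3.74 on the log2 scale.

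Its paralogue twist1b had 88.3 and 85.7 CPM in Q_2a and Q_2b, 65.7 and 74.5 CPM in A_2a and A_2b, 73.9 CPM in Q_1 and 95.8 CPM in A_1, against 16.2 CPM in Q_unsorted and 20.7 CPM in A_unsorted. All sorted libraries again lay above both embryos. The log2 fold change was 2.06 ± 0.30 in run 2 (SE, edgeR adjusted p = 0.000113) and 2.45 ± 0.39 in run 1 (SE, edgeR adjusted p = 0.000374).

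Within the twist1 pair, twist1a took a larger share of the reads in every sorted library than in either embryo. twist1a took 78.0%, 78.1%, 78.1% and 78.1% of the reads on both genes in Q_2a, Q_2b, A_2a and A_2b, 80.6% in Q_1 and 83.4% in A_1, against 60.0% in Q_unsorted and 55.1% in A_unsorted. The 4 libraries of run 2 were within their counting error of each other, and both run 1 libraries lay above them. The 95% Wilson interval was 77.0% to 79.0% in Q_2a, 82.6% to 84.2% in A_1, 56.6% to 63.4% in Q_unsorted and 51.5% to 58.6% in A_unsorted, and covers counting error only. Over RNA samples the share averaged 80.1% ± 2.56 in sorted cells (SD, n = 4) and 57.6% ± 3.50 in embryos (SD, n = 2). An exact permutation test, two-sided by doubling the smaller tail, gave p = 0.133, the smallest p that this form of the test allows for 4 against 2 samples.

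**Figure D2:**
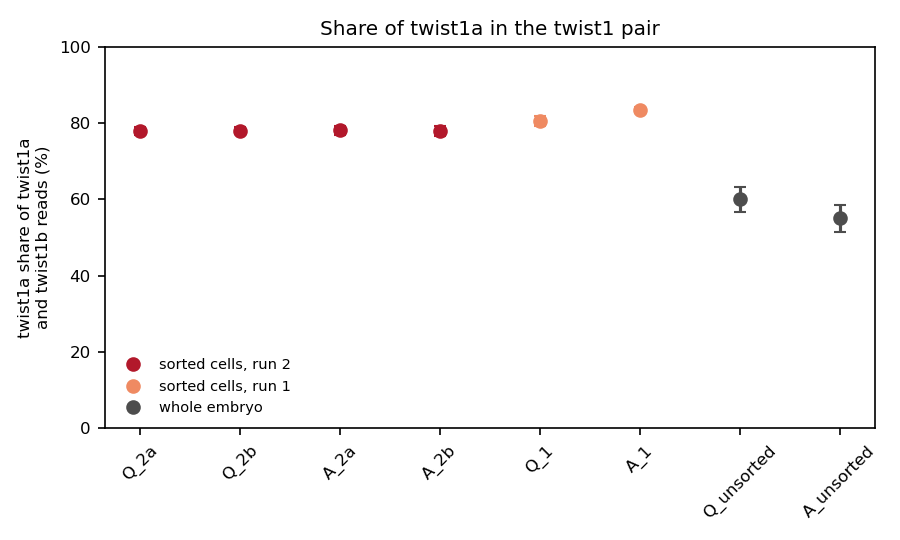
Share of twist1a in the reads on twist1a and twist1b (y axis, percent) in each library (x axis), with 95% Wilson intervals as bars. The 6 sorted libraries sit between 78.0% and 83.4%, above the embryos at 60.0% and 55.1%.

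prrx1a encodes a paired-related homeodomain factor of craniofacial and limb mesenchyme. It had 320 and 296 CPM in Q_2a and Q_2b, 271 and 287 CPM in A_2a and A_2b, 267 CPM in Q_1 and 196 CPM in A_1, against 34.2 CPM in Q_unsorted and 35.2 CPM in A_unsorted. A_1 was here the lowest sorted library and still lay above both embryos. The gene rose 8.20-fold in run 2 (log2 3.03 ± 0.33 SE, edgeR adjusted p = 1.24e-05) and 7.66-fold in run 1 (log2 2.94 ± 0.42 SE, edgeR adjusted p = 0.00019).

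The Dlx homeodomain factors mark arch mesenchyme, with dlx2a broad along the arch and dlx5a restricted to its intermediate and ventral part. dlx2a had 105 and 110 CPM in Q_2a and Q_2b, 87.7 and 86.6 CPM in A_2a and A_2b, 78.5 CPM in Q_1 and 74.0 CPM in A_1, against 17.97 CPM in Q_unsorted and 21.6 CPM in A_unsorted. Sorted libraries and embryos did not overlap. In CPM run 2 lay above run 1, while the fitted log2 difference between runs was 0.0038 ± 0.48 (SE, edgeR adjusted p = 0.998). How many of all genes separate by run in CPM was not computed. dlx2a rose by 2.27 ± 0.30 on the log2 scale in run 2 (SE, edgeR adjusted p = 5.33e-05) and by 2.17 ± 0.36 in run 1 (SE, edgeR adjusted p = 0.000511).

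dlx5a had 219 and 239 CPM in Q_2a and Q_2b, 155 and 141 CPM in A_2a and A_2b, 260 CPM in Q_1 and 324 CPM in A_1, against 43.2 CPM in Q_unsorted and 40.4 CPM in A_unsorted. Its sorted libraries spread 2.30-fold between the lowest and the highest, and all lay above the embryos. The log2 fold change was 2.14 ± 0.34 in run 2 (SE, edgeR adjusted p = 0.000212) and 3.03 ± 0.45 in run 1 (SE, edgeR adjusted p = 0.000251).

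barx1, a homeodomain factor of arch mesenchyme that keeps joints from forming within cartilage, showed the highest log2 fold change of the 9 factors in run 2. It had 197 and 182 CPM in Q_2a and Q_2b, 154 and 153 CPM in A_2a and A_2b, 159 CPM in Q_1 and 164 CPM in A_1, against 15.0 CPM in Q_unsorted and 15.2 CPM in A_unsorted. The sorted libraries lay within 1.28-fold of each other. The gene rose 11.02-fold in run 2 (log2 3.46 ± 0.33 SE, edgeR adjusted p = 4.43e-06) and 12.4-fold in run 1 (log2 3.63 ± 0.42 SE, edgeR adjusted p = 4.46e-05).

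hand2 encodes a basic helix-loop-helix factor of the ventral arches that also acts in the fin bud and the heart. Its level was 196 and 218 CPM in Q_2a and Q_2b, 183 and 179 CPM in A_2a and A_2b, 235 CPM in Q_1 and 224 CPM in A_1, against 33.4 CPM in Q_unsorted and 43.7 CPM in A_unsorted. All sorted libraries lay above the embryos. In CPM both run 1 libraries lay above all of run 2, a separation whose share over all genes was not computed. The fitted log2 difference of run 2 to run 1 was -0.58 ± 0.51 (SE, edgeR adjusted p = 0.514) and not called. hand2 rose by 2.31 ± 0.31 on the log2 scale in run 2 (SE, edgeR adjusted p = 6.03e-05) and by 2.80 ± 0.42 in run 1 (SE, edgeR adjusted p = 0.000247). Of 5 heart muscle markers, 5 were called lower in run 2 sorted cells and 3 in run 1 sorted cells. They summed to 3.21 to 4.17 CPM in run 2 sorted cells and 6.32 to 28.05 CPM in run 1 sorted cells, against 74.2 to 75.8 CPM in whole embryos, and their part in the hand2 values was not tested.

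sox10 encodes an HMG-box factor needed for pigment, glial and enteric derivatives of the crest. It had 90.5 and 74.5 CPM in Q_2a and Q_2b, 98.4 and 112 CPM in A_2a and A_2b, 69.5 CPM in Q_1 and 36.7 CPM in A_1, against 22.4 CPM in Q_unsorted and 26.3 CPM in A_unsorted. Its sorted libraries spread 3.04-fold, the widest of the 9 factors, with A_1 nearest to the embryos. sox10 rose 3.71-fold in run 2 (log2 1.89 ± 0.29 SE, edgeR adjusted p = 0.000164) and 2.48-fold in run 1 (log2 1.31 ± 0.37 SE, edgeR adjusted p = 0.0123). The run 1 call was lost when 1 RNA was left out, with an edgeR adjusted p of 0.0576 without Q_1 (log2 0.94), 0.0987 without A_unsorted (log2 1.30) and 0.0834 without Q_unsorted (log2 1.32), and held without A_1 (log2 1.63).

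Genes listed as markers of pigment cells, glia, and autonomic and enteric neurons were more often called lower than higher. Whether they are also expressed outside crest derivatives was not tested, so their values do not measure those derivatives alone. Of 12 pigment cell genes tested in run 2 sorted cells against whole embryos, 1 was higher (ltk, a receptor kinase of iridophores, log2 1.79) and 7 were lower, among them pnp4a (-4.27) of iridophores and pmela (-3.88) and TYR (-3.49) of melanin synthesis. The other 4 pigment cell genes were not called, namely gch2 (-0.09), XDH (-0.48), aox5 (0.58) and a MITF gene (ENSDARG00000037833, 1.40). gch2 averaged 240 CPM in run 2 sorted cells and 244 CPM in the embryos. In run 1 sorted cells 8 of 11 pigment cell genes were lower and none was higher, with ltk at 0.53 and not called. XDH (-2.25) and aox5 (-1.66) were called lower there, and gch2 (-0.72) was not called. The run 2 to run 1 difference was itself called for aox5 (log2 2.09, edgeR adjusted p = 0.000455) and XDH (1.70, edgeR adjusted p = 0.0234). Of 6 glial genes in run 2, 5 were lower, including the myelin genes mbpa (-3.54) and plp1b (-2.04), and EGR2 was higher (2.04). Of 6 autonomic and enteric neuron genes, 3 were lower (DBH, TH and ascl1a) and none higher. DBH and TH rest on few reads, at 0.0615 and 0.304 CPM in run 2 sorted cells and 6.40 and 1.62 CPM in the embryos. For DBH the run 2 to run 1 difference was itself called (log2 -3.64, edgeR adjusted p = 0.0216). The summed glial markers had 39.7 to 44.4 CPM in run 2 sorted cells and 28.2 to 47.9 CPM in run 1 sorted cells, against 131 to 136 CPM in whole embryos. These sums rest on different genes. EGR2 held 19.8 to 24.2 CPM of them in run 2 sorted cells, and mbpa 84.3 to 91.9 CPM in the embryos. The part of glial cells in the sox10 values was not tested.

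tfap2a encodes an AP-2 factor that acts at the induction of the crest and is also expressed in epidermis. Its values were 63.8 and 70.2 CPM in Q_2a and Q_2b, 70.6 and 63.0 CPM in A_2a and A_2b, 68.2 CPM in Q_1 and 48.3 CPM in A_1, against 80.7 CPM in Q_unsorted and 116 CPM in A_unsorted. All sorted libraries lay below both embryos, which differed from each other more than the run 2 libraries did. The log2 fold change was -0.56 ± 0.29 in run 2 (SE, edgeR adjusted p = 0.115) and -0.54 ± 0.37 in run 1 (SE, edgeR adjusted p = 0.258), so that neither passed the threshold. With the kit as a replicate block the run 2 value passed just under the threshold (-0.56, edgeR adjusted p = 0.04996). It also passed with technical replicates entered as separate libraries (-0.63, edgeR adjusted p = 0.00915). That fit counts libraries of the same RNA as independent samples, so its p does not measure the spread between RNA. Epidermal markers, all 6 of them lower in run 2 sorted cells, summed to 2080 to 2909 CPM in run 2 sorted cells and 1172 to 1201 CPM in run 1 sorted cells, against 10248 to 12324 CPM in whole embryos. A single gene, krt4, held 1712 to 2555 CPM of the run 2 sums and 8195 to 10080 CPM of the embryo sums. The part of epidermal cells in the tfap2a values was not tested.

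foxd3, a forkhead factor of early crest specification, had 0 counts in all 8 libraries, also in the columns that count each strand. A count of 0 allows up to 3 counts, which corresponded to 0.154 to 0.279 CPM per library, for counting error only. A total of 5579 genes of the annotation were at 0 in every column of every library. Whether reads on foxd3 were lost as reads on multiple loci or as ambiguous reads was not tested.

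**Figure D3:**
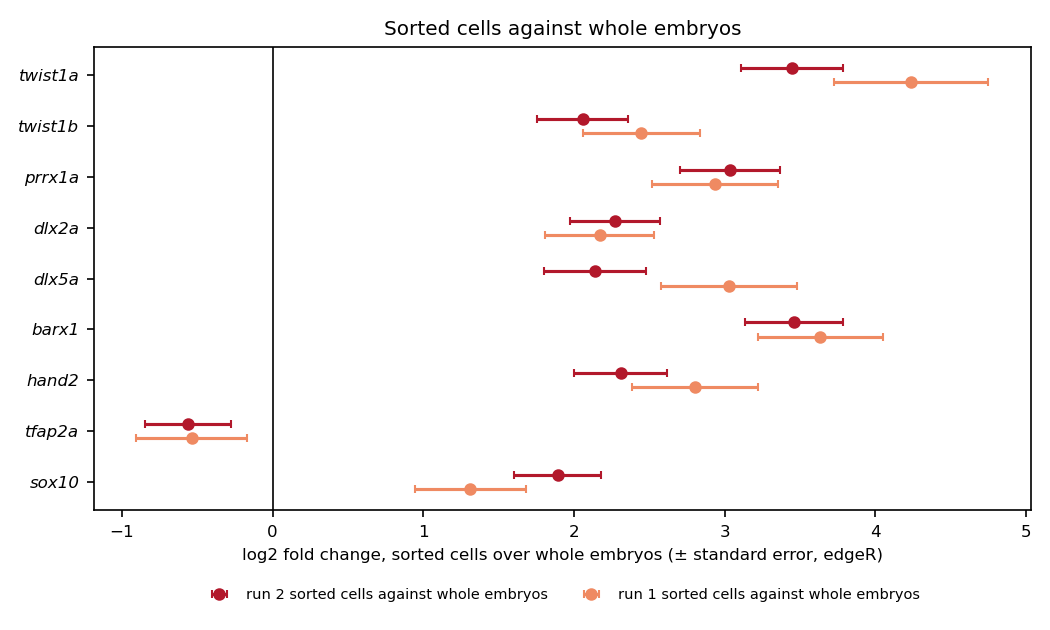
Log2 fold change (x axis) of the 9 measured factors in run 2 and in run 1 sorted cells over whole embryos, with standard errors from edgeR as bars. 8 factors lie to the right of 0 in both comparisons, from 1.31 (sox10, run 1) to 4.24 (twist1a, run 1), and tfap2a lies at -0.56 and -0.54.

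The difference between the sorted groups was tested directly, with the kit as a covariate. None of the 9 factors was called between run 2 and run 1 sorted cells by edgeR, 0 had an unadjusted p under 0.05, and DESeq2 called 0. Of all 19639 genes tested, 10.9% were called, 4.24% higher and 6.7% lower in run 2. The log2 differences ranged from -0.99 ± 0.53 for dlx5a (SE, edgeR adjusted p = 0.233) to 0.53 ± 0.47 for sox10 (SE, edgeR adjusted p = 0.525), and that of twist1a was -0.82 ± 0.54 (SE, edgeR adjusted p = 0.354). With technical replicates entered as separate libraries, dlx5a (-1.07, edgeR adjusted p = 0.0349) and hand2 (-0.61, edgeR adjusted p = 0.0439) passed. Libraries of the same RNA are not independent samples, so these calls are no support for a difference.

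In CPM, these differences had opposite signs within the kits for 4 of the 9 factors. How often signs were opposite over all genes was not computed. The kits lay closer for hand2 (-0.18 within RNeasy and -0.30 within RNAqueous) and dlx2a (0.45 and 0.24). They lay furthest apart for twist1a, dlx5a and sox10. Each kit had 1 RNA per run, so an effect of the kit and a deviation of 1 RNA cannot be told apart. In CPM, the run 2 to run 1 difference of twist1a was 0.01 on the log2 scale within RNeasy and -0.97 within RNAqueous, and that of dlx5a was -0.18 and -1.12. sox10 differed by 0.24 within RNeasy and by 1.498 within RNAqueous. Leaving out either RNAqueous RNA leaves the RNeasy contrast alone, and without A_1 or A_2 the fitted difference was -0.15 or -0.14 for twist1a, -0.34 or -0.33 for dlx5a and 0.08 or 0.09 for sox10. Without Q_1 or Q_2, which leaves the RNAqueous contrast, it was -1.52 or -1.49 for twist1a, -1.67 or -1.64 for dlx5a and 0.95 or 0.97 for sox10. None of these fits has residual degrees of freedom for a test.

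No factor was called between kits either, by edgeR or by DESeq2, and 0 had an unadjusted p under 0.05, while edgeR called 0.117% of all 19639 genes, 0.0458% higher and 0.0713% lower with RNeasy. The fitted difference of RNeasy to RNAqueous ran between -0.22 ± 0.54 for twist1a and 0.24 ± 0.51 for prrx1a (log2, SE, edgeR adjusted p = 1.00 for each). Within run 2 twist1a differed by 0.32 and within run 1 by -0.65, and sox10 by -0.34 and 0.92.

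**Figure D4:**
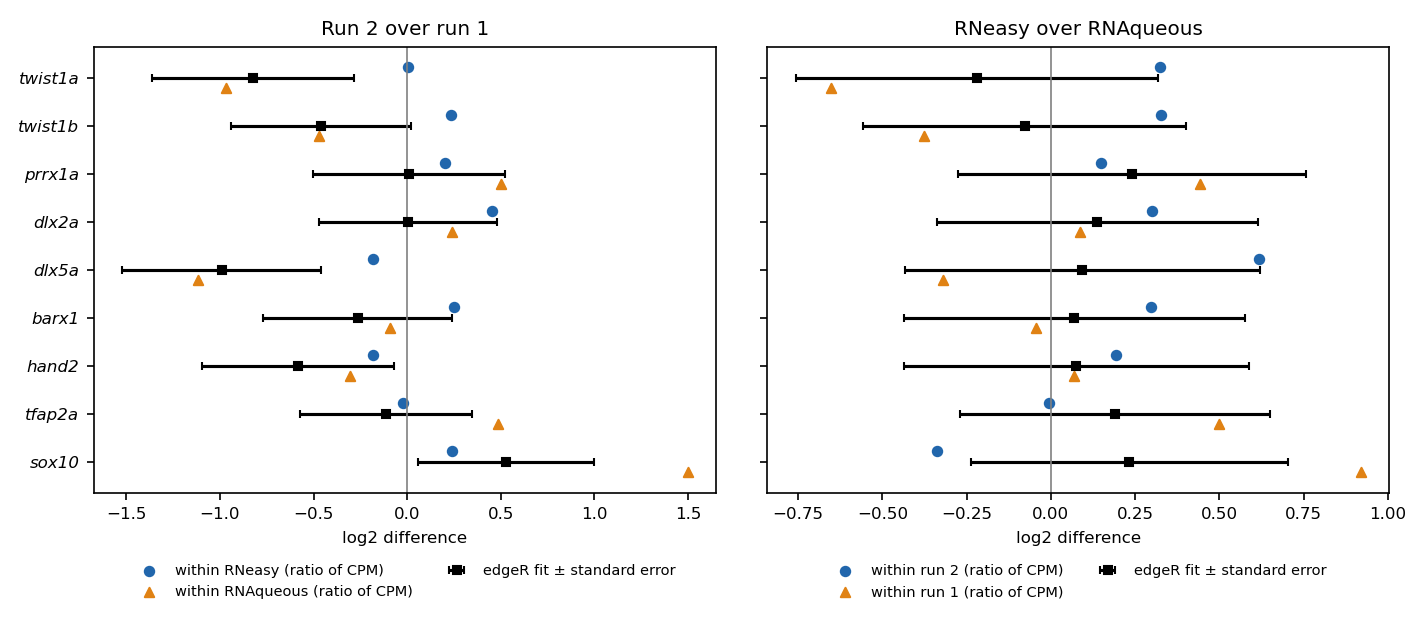
Log2 difference (x axis) of the 9 measured factors between run 2 and run 1 sorted cells (left) and between the RNeasy and RNAqueous kits in sorted cells (right). Black squares are edgeR fits with TMM normalization ± SE, and coloured points are CPM ratios within a kit or a run, which can lie to the side of the fit because CPM uses library totals. The points of twist1a, dlx5a and sox10 lie far apart.

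Technical replicates of the same RNA differed little. Q_2a and Q_2b differed by at most 1.21-fold (sox10) and A_2a and A_2b by at most 1.13-fold over the 9 factors. In each pair 6 of the 9 factors differed by more than 2 counting standard errors. The share over all genes was not computed, so this count does not set the factors apart from other genes.

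Other genes of the same programmes were counted from lists. Of 26 other neural crest specification genes tested in run 2 sorted cells against whole embryos, 13 were higher, 2 lower and 11 not called, with a median log2 fold change of 1.03. In run 1 sorted cells 12 of 25 were higher and 1 lower (a PAX7 gene, ENSDARG00000070818, log2 -1.18, named after its value was seen), with a median of 0.63. A SOX9 gene (ENSDARG00000003293), a factor of cartilage formation that the cartilage list also holds, had the highest value, 675 ± 84.3 CPM in run 2 sorted cells and 26.5 ± 4.80 CPM in the embryos (SD, n = 2 RNA each, log2 4.65). It was followed by snai1a (3.78), a repressor that acts in epithelial-mesenchymal transition, and ID3 (3.38), an inhibitor of basic helix-loop-helix factors.

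In run 2 the lowest values of this list belonged to relatives of tfap2a. TFAP2B averaged 7.73 ± 0.37 CPM in run 2 sorted cells and 23.0 ± 11.9 CPM in the embryos (SD, n = 2 RNA each), a log2 fold change of -1.57 (edgeR adjusted p = 0.00268). TFAP2E was also lower (-0.91, edgeR adjusted p = 0.0225), and TFAP2C was at -0.67 (edgeR adjusted p = 0.0712) and not called. In run 1 sorted cells the log2 value of TFAP2B was -0.21 and not called, and the run 2 to run 1 difference was itself called at -1.45.

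Among 45 other arch mesenchyme factors, 35 were higher, 2 lower and 8 not called in run 2, with a median log2 fold change of 1.92, and in run 1 sorted cells 34 were higher and 1 lower. The forkhead genes foxc1b (4.03) and FOXC1 (3.88) and the homeobox gene GSC (3.90) had the highest values, and BARX2 and a MEF2C gene (ENSDARG00000029764, -1.08) were lower. BARX2 was near the floor of 3 counts in sorted cells, at 0.179 ± 0.09 CPM in run 2 sorted cells and 1.15 ± 0.32 CPM in the embryos (SD, n = 2 RNA each). GSC, which acts in arch patterning, averaged 167 ± 15.3 CPM in run 2 sorted cells, against 10.96 ± 1.97 CPM in the embryos (SD, n = 2 RNA each).

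Relatives of the set itself were chosen for naming after their values were seen. twist2 (2.85), twist3 (2.65) and a second PRRX1 gene (ENSDARG00000042027, 2.80) were higher in run 2 sorted cells. DLX1 (1.80) and DLX6 (1.93), which belong to the same homeobox gene pairs as dlx2a and dlx5a, were higher as well. A second DLX2 gene (ENSDARG00000017174) averaged 6.57 ± 1.22 CPM in run 2 sorted cells and 7.53 ± 0.21 CPM in the embryos (SD, n = 2 RNA each) and was not called (-0.23 ± 0.37 SE, edgeR adjusted p = 0.615).

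The third list held ligands and receptors of arch signalling, of which 16 of 26 were higher, 5 lower and 5 not called in run 2 (median 1.81), against 13 higher and 4 lower in run 1. Receptors had the highest values, with FGFR1 (ENSDARG00000011190) at 4.60 and the hedgehog receptor PTCH1 at 3.34. Both varied widely between the run 2 RNA, at 57.1 ± 30.5 CPM for this FGFR1 gene and 46.0 ± 32.3 CPM for PTCH1 (SD, n = 2 RNA each). A second FGFR1 gene (ENSDARG00000011027) was at 1.80. The ligand genes SHH (-2.95 and -2.18 for its 2 genes) and FGF8 (ENSDARG00000003399, -2.57) were the lowest. For FGF8 the levels were low, at 0.329 ± 0.08 CPM in run 2 sorted cells and 1.86 ± 1.28 CPM in the embryos (SD, n = 2 RNA each).

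Markers of the tissues that fli1a reports were high in the sorted cells. All 12 cartilage genes and all 11 endothelial genes were called higher in run 2. So were all 5 leukocyte genes and 1 of 3 erythroid genes. Skeletal muscle (5 of 5), heart muscle (5 of 5), neuron (10 of 11) and epidermis (6 of 6) genes were called lower. In run 1, 12 of 12 cartilage genes and 9 of 11 endothelial genes were called higher. The endothelial list, of which 11 of 14 symbols matched, holds fli1a itself (FLI1, log2 3.45 in run 2). Its promoter drives the EGFP used for sorting, so its call is no separate support. Cartilage markers summed to 42980 to 60957 CPM in run 2 sorted cells and 20010 to 33285 CPM in run 1 sorted cells, against 3483 to 4988 CPM in whole embryos. The share of any of these cell types in the values of the 9 factors was not tested.

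**Figure D5:**
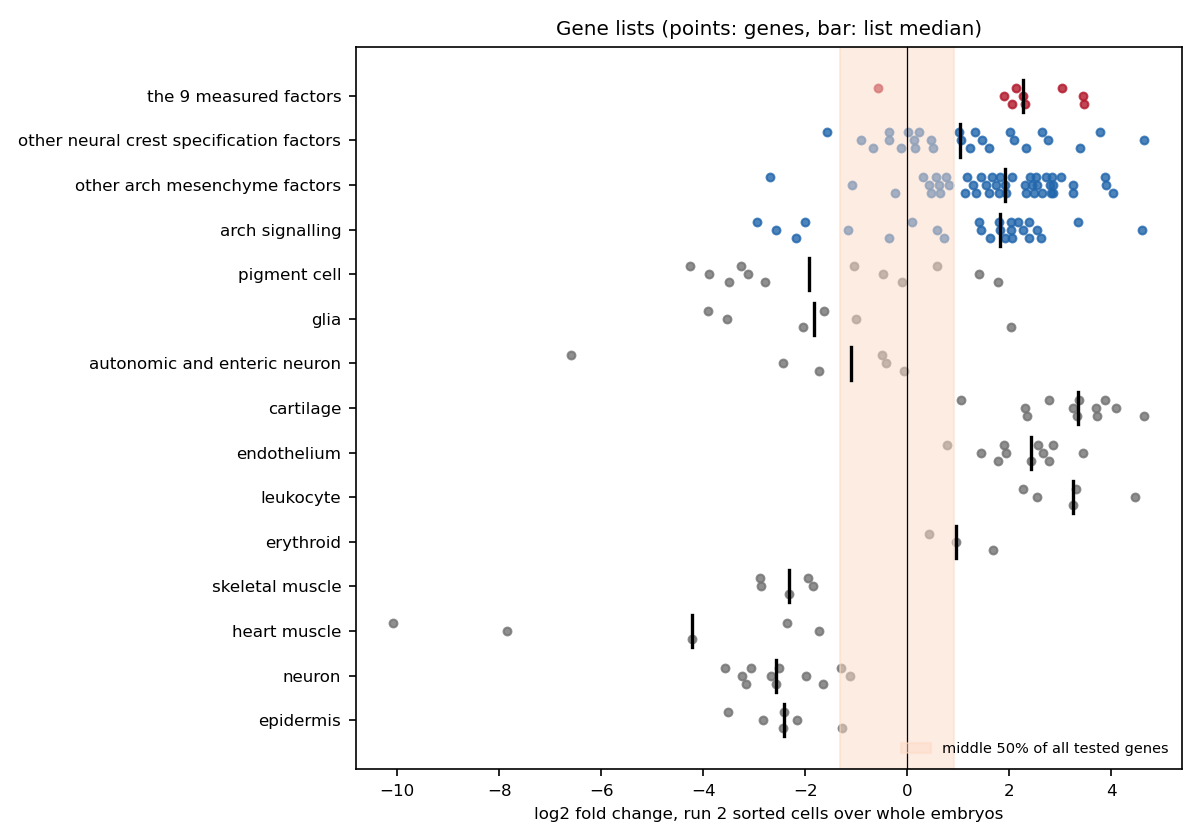
Log2 fold change in run 2 sorted cells over whole embryos (x axis) for the 9 measured factors and the 14 gene lists (points: genes, black bars: list medians), with the middle 50% of all tested genes shaded. The factors (median 2.27) and the other arch mesenchyme factors (1.92) lie mostly right of 0, and pigment, glial, muscle, neuron and epidermis markers mostly left of it.

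Genes near barx1 and tfap2a over the samples were searched among 18553 genes averaging 1 CPM or more. The measure was the Euclidean distance of log2(CPM + 1), centred over the 6 RNA samples. The added 1 shrinks differences at low levels, so the distance depends in part on level. Nearest to barx1 were OSER1 (0.410), her15.1 (0.427) and lpar5a (0.436). For tfap2a, GPAT3 (0.0793), BACE1 (0.126) and CCDC85C (0.135) were nearest. GPAT3 averaged 30.9 CPM in run 2 sorted cells and 45.4 CPM in whole embryos. BACE1 was low, at 1.11 and 2.17 CPM (log2 fold change -0.97), and lpar5a had 0.641 CPM in whole embryos (log2 fold change 4.42). The distances describe these 6 samples, which share kits and runs, and carry no test.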

How the data were processed

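PolyA RNA of 6 RNA samples was sequenced as 8 libraries after SMART-Seq v4 amplification and Nextera XT preparation. The authors aligned reads to GRCz10 with STAR, counted them on the Ensembl 91 annotation and deposited raw counts per gene, without normalization, in 3 columns (unstranded and each strand). The unstranded column was used, since the protocol keeps no strand. Reads on multiple loci are not counted, so near-identical gene copies lose reads, and overlapping genes cannot be told apart. The 4 summary entries of each file stayed out of library sizes, and 23.3% to 30.3% of reads were not on 1 gene. Depth ranged from 10763174 to 19537939 counts per library. The counts carry no molecular identifiers.

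Technical replicates were summed per RNA. edgeR version 4.0.16 (TMM, filterByExpr with a minimum count of 10, quasi-likelihood test, R version 4.3.3) was fitted over all genes, with Benjamini-Hochberg adjustment at 0.05. The standard error of a fold change was derived from its F statistic. Whole embryos were compared without covariates, runs with kit and kits with run as covariate. Alternatives were DESeq2 version 1.42.0, other normalizations, filters, strand columns and covariates, libraries entered separately, a fit over all samples and leaving out each RNA. The fits were run on simulated counts with a fixed dispersion and known changes. That checks the code and does not measure the rate of false calls in these data. Scipy version 1.17.1 and matplotlib version 3.10.9 were used for the permutation test and figures.

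The set and the 14 lists were chosen with earlier results of these data known. Of each list, up to 3 genes with the highest and 3 with the lowest log2 fold change in run 2 sorted cells were eligible for naming, besides the 10 genes, fli1a and the 3 genes nearest to the highest and to the lowest of them. Paralogues and neighbours of the 10 genes, a PAX7 gene, a second FGFR1 gene, gch2 and XDH were named outside this rule, after their values were seen. Some genes eligible by this rule are not reported here. List symbols were matched to a names table, which gives a symbol to 27000 of the 35117 genes and names most zebrafish paralogues by the human symbol. Each name therefore took every gene carrying it, 178 genes in all. In the crest, arch and signalling lists 21 of 26, 41 of 45 and 20 of 20 symbols matched, and 1 arch gene was at 0. No genome of the build was used, so no sequence or coordinate is given.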

Additional observations from a re-analysis of the deposited data

How the results depend on the processing

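Against whole embryos, the 8 called factors kept their direction and call under all 13 alternatives in run 2, and in run 1 under all 12 except for sox10, whose call was lost in 3 of the fits that left out 1 RNA (7 to 8 factors called). tfap2a passed in run 2 with the kit as a replicate block (-0.56, edgeR adjusted p = 0.04996; 9 factors and 11718 genes called) and with libraries entered separately (-0.63, edgeR adjusted p = 0.00915), over a range of adjusted p of 0.00915 to 0.396. Libraries entered separately count technical replicates as independent samples, so p-values of that fit do not measure the spread between RNA. In run 1 the kit block called 8 factors and 7931 genes. The kit was not taken as a pairing in the comparisons with embryos, although each group held both kits. Deviations shared by kit had Spearman correlations across 18574 genes of 0.302 (run 2 and embryos), -0.153 (run 1 and embryos) and -0.174 (run 2 and run 1). These correlations do not justify the choice in each comparison. The only positive one belongs to run 2 and embryos, where the call of tfap2a depends on the block. The run comparison kept the kit as a covariate. Leaving out 1 RNA, with the lone sample of a group assumed to vary like the other group, gave 5572 (without A_2) to 10466 genes called in run 2 against 11045, with 8 factors called each time, and 5912 to 8518 in run 1 against 8670. Between runs, 2149 genes were called, and 1041 by DESeq2, 1376 with library totals, 359 in a fit over all 6 RNA samples, 1414 with no replicate block (0 factors) and 5218 with libraries entered separately (2 factors). Between kits, 23 genes were called, and 11 by DESeq2, 9 with library totals, 11 with at least 10 counts in every RNA and 0 in the fit over all 6 RNA samples. Library totals moved the median log2 difference of all genes between runs from 0.05 to 0.40 and the share of calls higher in run 2 from 38.8% to 72.1%, and for run 1 against embryos the median from -0.06 to -0.27 and the share from 40.5% to 31.3%. Uncalled run differences near 0 changed sign: prrx1a (0.0104) to -0.0253 by DESeq2 and with RLE size factors, -0.00863 with both strands and -0.00068 with libraries separately; dlx2a (0.0038) to -0.0320, -0.0320, -0.0153 and -0.0253 under these; barx1 (-0.26) to 0.0776 and tfap2a (-0.11) to 0.231 with library totals. The kit difference of twist1b (-0.08) became 0.0595 with libraries entered separately. Leaving out 1 RNA from the run and kit fits left no residual degrees of freedom, and the run difference of twist1a then lay between -1.52 and -0.14. The causes were not tested.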
